A study of Mus musculus with 2 samples.

Results

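Naive CD8 T cells are T cells that carry the CD8 coreceptor and have not yet met the antigen their receptor recognises. In these data they were picked from single spleen cells by their transcripts, counted as unique molecular identifiers (UMIs), each of which stands for 1 captured RNA molecule. A cell was kept when it held at least 500 UMIs and 200 genes and when fewer than 10% of its UMIs were mitochondrial. A kept cell was a member when Cd3d, Cd3e and Cd3g together gave at least 2 UMIs and Cd8a and Cd8b1 together at least 1. It also had to have no UMI of Cd79a, Ms4a1, Cd4 or Trdc and fewer than 3 UMIs of Ccl5, a chemokine that antigen-experienced CD8 T cells make in large amounts. Of 18316 kept cells, 690 met this rule, 298 of 9733 in the wild-type library and 392 of 8583 in the knock-in library.

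The study sequenced splenocytes of age-matched mice, 1 library with the M694I wild-type genotype and 1 with the M694I knock-in genotype of Mefv, with a droplet method that reads the 3′ ends of transcripts. Mefv codes for pyrin, a sensor that starts an inflammasome, and M694I is an amino acid change known from familial Mediterranean fever. Each sample title names 1 mouse, all mice were kept free of specific pathogens, and spleens were broken up mechanically with lysis of red cells and no sort for T cells. The sources used here do not give age, strain, whether 1 or both alleles carried the change, or how it was placed in the mouse gene. The series title names interferon responses and inflammatory pathways as its subject.

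A naive CD8 T cell circulates between blood and lymphoid organs, held in a quiet state by transcription factors such as Lef1, Tcf7, Klf2 and Foxp1 and kept alive by interleukin 7. It enters lymphoid tissue with the chemokine receptor Ccr7 and leaves it with the sphingosine phosphate receptor S1pr1. After antigen, or slowly under cytokines alone, CD8 T cells gain Ly6c2, Il2rb, Eomes, Nkg7, Cxcr3 and Ccl5, while interferons raise class I antigen presentation and the immunoproteasome in nearly every cell type.

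With 1 library per genotype there is no replicate check, so no test between genotypes was possible and every difference below is a difference between 2 libraries. Intervals are exact 95% intervals and cover counting error only. The deposited matrices held 10449 wild-type and 9000 knock-in barcodes with 32797052 and 25193274 UMIs. Kept cells had a median of 2557 UMIs in the wild-type library and 2049 in the knock-in one. Members were deeper, with medians of 3419 UMIs and 1160.5 genes in the wild-type library and 2893.5 UMIs and 1031 genes in the knock-in library. Their UMIs summed to 1164002 and 1273466, and levels are given as CPM, UMIs per 1000000 UMIs of such a sum. The libraries shared 27 barcode sequences, none of them a member. Y-linked genes gave UMIs in the members of both libraries and Xist gave none.

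Lef1 and Dapl1, markers of these cells that the rule did not read, were present. Lef1, a transcription factor of naive T cells, had a UMI in 79.2% (74.1 to 83.7) of wild-type and 75.3% (70.7 to 79.4) of knock-in members. In B cells, which stand for the level that free RNA in the droplets can give, Lef1 had a UMI in 3.27% and 2.05% of cells at median depths of 2367.5 and 1887 UMIs. Dapl1, a gene with high RNA levels in resting naive T cells, had a UMI in 31.5% (26.3 to 37.2) of wild-type and 39.8% (34.9 to 44.8) of knock-in members, against 0.063% and 0.108% of B cells. The 12 B cell markers summed to 429.6 CPM in wild-type members and 402.8 CPM in knock-in members, against 49042 and 88237 CPM in B cells. These low sums were spread over many cells, with a UMI in 66.4% of wild-type and 59.4% of knock-in members. Of these 12, Cd79a and Ms4a1 were at 0 because the rule requires it. Of 5 CD4 T cell markers, 3 were detected in the members of each library, and Cd4 was at 0 because the rule requires it. They summed to 38.7 and 83.2 CPM, against 813 and 1140 CPM in CD4 T cells. Zbtb7b, the factor that sets the CD4 fate, had no UMI in any member. The 6 regulatory T cell markers were all detected, with a UMI in 37.2% and 41.1% of members, against 4.65% and 6.58% of B cells. Foxp3, which is 1 of them, had 1 UMI in each library.

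The limits of the rule cut through sparse counts. Cd8a and Cd8b1 gave only 1 UMI in 36.9% of wild-type and 28.6% of knock-in members. A T cell with no captured UMI of Cd4, Cd8a or Cd8b1 fell in no class, and such cells were 55.4% of wild-type and 48.8% of knock-in T cells. Ccl5 was at 0 in 262 of the 298 wild-type members and in 352 of the 392 knock-in members. Only 5 wild-type and 7 knock-in CD8 cells lay just outside the limit, with exactly 3 Ccl5 UMIs, and 9 and 10 members lay just inside it, with 2. The median among the excluded cells was 20 and 25.5 Ccl5 UMIs, so few cells sat near the limit.

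Members made up 3.06% (2.73 to 3.42) of kept wild-type cells and 4.57% (4.14 to 5.03) of kept knock-in cells, a log2 ratio of 0.58 (0.36 to 0.80). Among T cells they made up 18.2% (16.4 to 20.1) of the wild-type and 24.9% (22.7 to 27.1) of the knock-in library, a log2 ratio of 0.45 (0.23 to 0.67). Both shares were higher in the knock-in library beyond counting error. When every cell was first thinned at random to 1000 UMIs, the rule found 85 and 162 members. These were 0.888% and 1.97% of kept cells, a log2 ratio of 1.15 (0.77 to 1.55), and 9.93% and 16.2% of T cells, a ratio of 0.70 (0.32 to 1.10). Cd8a, which the rule reads, stood at 188 CPM in wild-type members and 294 CPM in knock-in members, and Cd8b1 at 491 and 641 CPM. The part of these levels in the difference in shares was not tested.

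The members differed among themselves in how far they carried transcripts of experienced cells. A list of 36 genes of memory and effector CD8 T cells, read without its member Ccl5, gave 1360 CPM in wild-type members with no Ccl5 UMI, 1770 CPM in those with 1 and 2950 CPM in those with 2. Just outside the rule, wild-type CD8 cells with 3 to 5 Ccl5 UMIs gave 3317 CPM, and those with 6 or more gave 5265 CPM. Knock-in cells gave 1634, 3084, 2686, 3094 and 6049 CPM over the same steps. Members with 1 or 2 Ccl5 UMIs were thus nearer to the cells just outside the limit than to members with none, apart from the wild-type cells with 1. A list of 30 genes of naive and quiescent T cells changed less over these steps, from 8315 to 6532 CPM in the wild-type library and from 9125 to 7292 CPM in the knock-in one between no Ccl5 UMI and 6 or more.

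**Figure D1:**
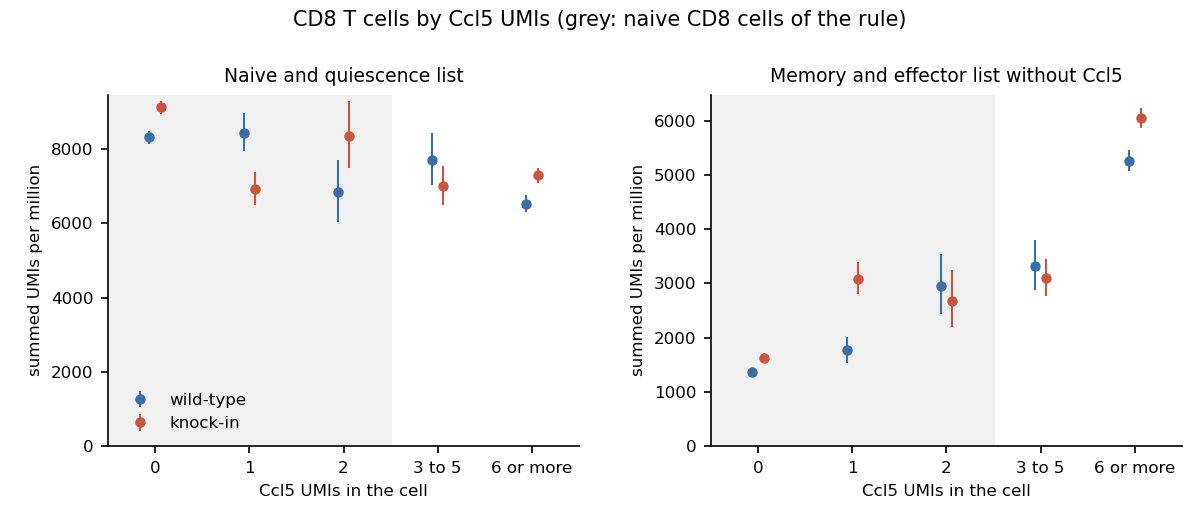
Summed CPM (y axis) of the naive list and of the memory list without Ccl5 in CD8 T cells grouped by their Ccl5 UMIs (x axis), for both libraries, with exact 95% Poisson bars. Grey marks the steps that hold members, where the memory list runs from 1360 to 2950 CPM in the wild-type library, and the cells with 6 or more Ccl5 UMIs lie highest at 5265 and 6049 CPM.

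Ly6c2, a surface protein gene that marks CD8 T cells after cytokine or antigen contact, split the members further. It had a UMI in 70 wild-type and 128 knock-in members, which were also deeper than the rest (median 4413 against 3231.5 UMIs and 3387 against 2666.5 UMIs). Eomes, a transcription factor of memory cells, stood at 118 CPM in wild-type members with a Ly6c2 UMI and at 38.3 CPM in those without. In the knock-in library Eomes stood at 67.3 and 10.6 CPM. Lef1 was lower beside Ly6c2, with 384 against 583 CPM in the wild-type library and 498 against 548 CPM in the knock-in one. Dapl1 differed between the libraries: it stood at 135 CPM with Ly6c2 against 195 CPM without in the wild-type library, and at 359 against 182 CPM in the knock-in one. Il7r did so too, at 378 against 492 CPM and at 538 against 497 CPM. Itgae, which codes for the integrin CD103, was lower beside Ly6c2, with 2.82 against 22.2 CPM in the wild-type library and 13.5 against 33.2 CPM in the knock-in one. These Itgae levels rest on few UMIs, 1 and 18 in the wild-type library and 7 and 25 in the knock-in one.

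Igfbp4, which codes for a secreted protein that binds insulin-like growth factors, also split the members. It was lower beside Ly6c2, at 47.9 against 100 CPM in the wild-type library and 154 against 234 CPM in the knock-in one. It had a UMI in 67 wild-type and 149 knock-in members, whose depth was close to that of the rest (median 3572 against 3381 UMIs and 2966 against 2788 UMIs). Beside Igfbp4, Eomes stood at 8.02 CPM in the wild-type library and 17.0 CPM in the knock-in one, and without it at 77.6 and 43.6 CPM. Cd44, an adhesion receptor that rises on experienced T cells, had no UMI in wild-type members with Igfbp4 and 36.1 CPM in those without it. In the knock-in library Cd44 stood at 12.7 and 46.1 CPM. Il7r, the interleukin 7 receptor, was higher beside Igfbp4 in both libraries, at 613 against 414 CPM and 611 against 456 CPM. Not all memory genes followed Eomes. Nkg7 was level, at 152 against 162 CPM and 305 against 298 CPM. Il2rb was higher beside Igfbp4 in wild-type members, at 160.3 against 106 CPM, and lower in knock-in ones, at 59.4 against 96.0 CPM.

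The contrast with experienced CD8 T cells was drawn against the 133 wild-type and 182 knock-in cells that met the same limits but had 3 or more Ccl5 UMIs. A gene entered when its mean was at least 20 CPM with at least 50 UMIs in the cells compared, and it was counted when its level differed by a log2 ratio of at least 1 in the same direction in both libraries. Of 3432 genes, 22 were higher in members (0.641%) and 22 were lower (0.641%). Ccl5, which chose the groups, is 1 of the 22 lower genes, and all of these values are a description.

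Ifngr2, Igfbp4, Rgcc and Dapl1 were among the genes most above the cells with Ccl5. Ifngr2, a chain of the interferon gamma receptor, stood at 143 CPM in wild-type members and 160.2 CPM in knock-in members, against 16.7 and 18.7 CPM in the cells with Ccl5, log2 ratios of 3.09 and 3.10. Rgcc, a regulator of the cell cycle, stood at 446 and 519.8 CPM against 134 and 191 CPM. Dapl1 stood at 177 and 254 CPM against 55.1 and 97.3 CPM. Igfbp4 had log2 ratios of 2.85 and 3.87. Inpp4b, a phosphatase that limits PI3 kinase signals, stood at 75.6 and 104 CPM against 26.7 and 24.9 CPM. Lef1 was 522 and 528 CPM in members against 240.4 and 271 CPM, log2 ratios of 1.12 and 0.96, so it passed the limit in the wild-type library only. Ccr7, the receptor for entry into the T cell zone, had log2 ratios of 1.00 and 0.90. Il7r was at close levels on both sides, with log2 ratios of -0.11 and 0.07. Of the 25 naive list genes compared, 4 were higher by the rule in both libraries and the list medians were 0.46 and 0.29, against 0.11 and 0.04 over all genes compared.

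Memory genes were on the other side. With Ccl5 left out, 11 of the 17 memory list genes compared were lower in members in both libraries, and the list medians were -1.82 for wild type and -1.54 for the knock-in. Nrarp, a feedback inhibitor of Notch signalling, stood at 11.2 and 12.6 CPM in members against 147 and 189.5 CPM, log2 ratios of -3.72 and -3.91. S100a6, a calcium-binding protein gene of activated cells, had log2 ratios of -3.19 and -2.57. Lgals1, the gene of galectin 1, had -2.36 and -1.63. Ctla2a, a protease inhibitor gene with a near copy in Ctla2b, stood at 217 and 131 CPM against 895 and 938 CPM. Ly6c2 was 172 and 240.3 CPM in members against 603 and 669.5 CPM, so the members were low in this gene but not free of it. Il2rb, the chain shared by the receptors for interleukins 2 and 15, had log2 ratios of -1.35 and -1.54.

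**Figure D2:**
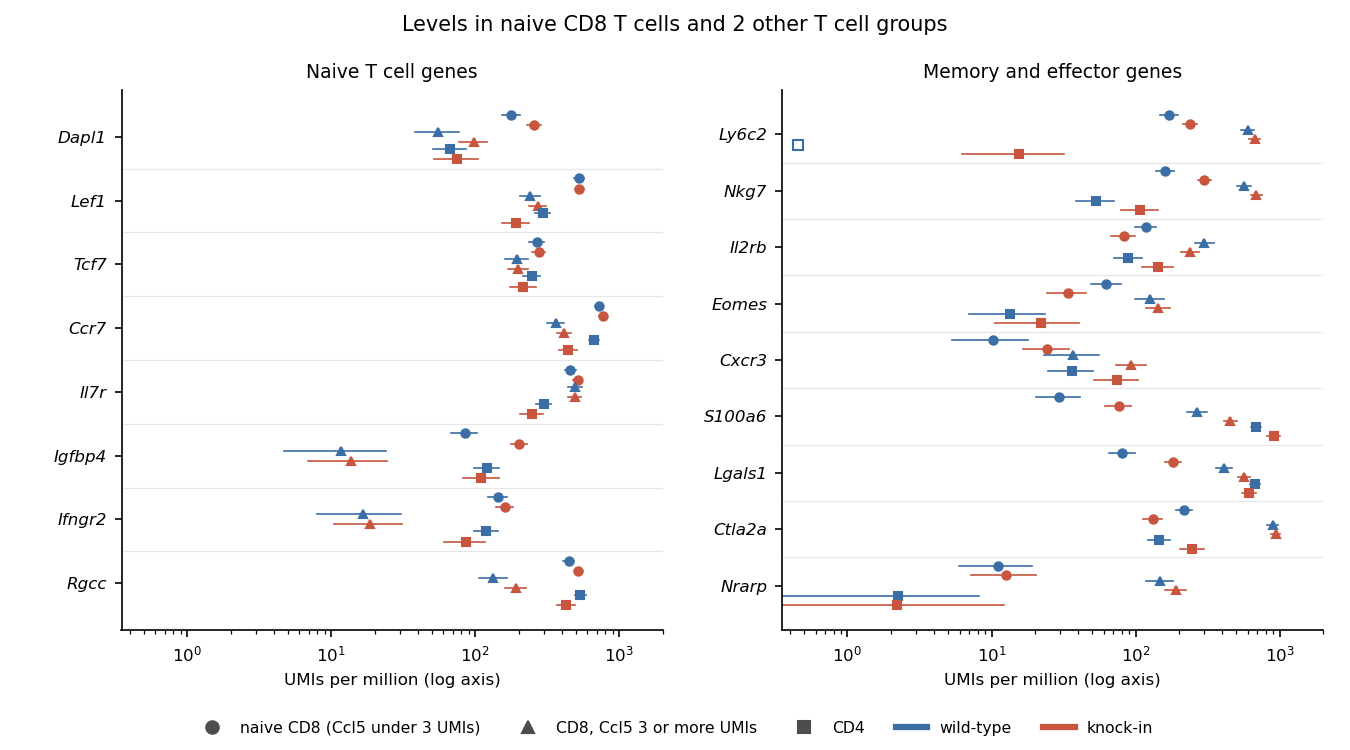
CPM on a log axis (x) of 8 naive and 9 memory genes (y) in members (circles), CD8 T cells with 3 or more Ccl5 UMIs (triangles) and CD4 T cells (squares), blue for the wild-type and red for the knock-in library, with exact 95% Poisson bars. Ifngr2 and Igfbp4 separate members from the cells with Ccl5 most widely among the naive genes, and the open square at the left edge is Ly6c2 in wild-type CD4 T cells, where it had 0 UMIs.

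CD4 T cells, which held a Cd4 UMI and none of Cd8a or Cd8b1, numbered 215 in the wild-type library and 151 in the knock-in one. Of 3630 genes compared, 31 were higher in members (0.854%) and 128 were lower (3.53%). Cd8a, Cd8b1 and Cd4 chose the groups and are among them, which leaves 29 and 127. This balance leans on the scaling: with the trimmed-mean (TMM) factors of edgeR, which move the log2 ratios by 0.22 in the wild-type library and 0.32 in the knock-in one, 50 genes were higher and 80 lower. Ribosomal protein genes took 43.4% and 42.1% of members' UMIs and 34.7% and 29.5% of those of CD4 T cells. The median over all genes compared was -0.23 in the wild-type library and -0.28 in the knock-in one, and single genes are best read against it.

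Some genes of cytotoxic and natural killer cells were among those higher in members than in CD4 T cells. The list of 8 natural killer markers summed lower, at 12.0 and 40.8 CPM in wild-type and knock-in members against 69.7 and 61.6 CPM in CD4 T cells. A UMI of these 8 was in 3.69% and 3.32% of members and in 2.33% and 2.65% of CD4 T cells. Klrd1, the gene of the receptor chain CD94, stood at 123 and 167 CPM in members against 5.62 and 15.4 CPM. Ctsw, a cathepsin gene of cytotoxic cells, had log2 ratios of 2.52 and 2.67. Nkg7, a granule protein gene, had 1.60 and 1.48. Ly6c2 had no UMI in the wild-type CD4 T cells and stood at 15.4 CPM in the knock-in ones. Fam241a, whose role is less known, stood at 377 and 459 CPM against 39.4 and 48.4 CPM. Of the naive list, 3 of 25 genes were higher in members by the rule, with medians of 0.16 and 0.87.

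Among the genes lower in members than in CD4 T cells were those of activated and helper cells. Tnfrsf4, the gene of the costimulatory receptor OX40, stood at 14.6 and 39.3 CPM in members against 502 and 1072 CPM. Maf, a transcription factor of helper cells, had log2 ratios of -3.20 and -3.66. Izumo1r, the gene of folate receptor 4, had -2.99 and -2.84. S100a4 had -4.25 and -4.85 and S100a6 -4.55 and -3.58. The CD4 T cells were taken by Cd4 alone, with no limit on genes of experienced cells.

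Between the genotypes, Mefv itself could not be compared in members. It had 3 UMIs in the wild-type library and 1 in the knock-in one, too few for a ratio to be read. Mefv lies on chromosome 16 at 3707218 to 3718097, minus strand (GRCm38, GENCODE M21), and reads from its 3′ end do not show which allele is present.

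Across all 4522 genes with enough UMIs in members, 547 were higher in the knock-in library (12.1%) and 429 were lower (9.49%), with a median log2 ratio of 0.03. The balance leans on the scaling: TMM factors gave 497 higher and 472 lower, and totals without ribosomal protein, mitochondrial and immunoglobulin genes gave 464 higher and 537 lower. A share near 12.1% higher or 9.49% lower in a list is thus what all genes give. The counts below are read against these values.

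Besides Mefv, the genes of the pyrin and inflammasome list were mostly low, and 6 of 16 had enough UMIs. Of these, 3 were higher in knock-in members and 1 was lower, by the limit of a log2 ratio of at least 0.5, or 1.41-fold. Pycard, the adaptor ASC, stood at 52.4 CPM in wild-type members and 103 CPM in knock-in members, a log2 ratio of 0.97 (0.52 to 1.44). Pstpip1, a protein that binds pyrin, stood at 24.9 and 47.9 CPM, 0.94 (0.28 to 1.63). Casp1 had 0 and 10 UMIs.

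Both interferon lists held a larger share of genes past the upper limit in knock-in members than all genes did. Of the 23 type I interferon genes with enough UMIs, of 46 listed, 11 were higher and 1 was lower, with a median of 0.46. Of the 21 genes of the interferon gamma and immunoproteasome list, of 34, 8 were higher and 1 was lower, with a median of 0.36. Of the 18 genes of class I antigen presentation, of 21, 4 were higher and none lower, with a median of 0.30. The minimum of UMIs can let in a gene through the library where it is high. With no minimum beyond 1 UMI in each library, 2233 of all 10860 genes were higher and 2091 lower. The type I list then gave 13 of 40 higher and 6 lower, the interferon gamma list 10 of 32 and 2, and the class I list 4 of 20 and 0. The other classes are given for comparison, and whether members differ from them was not tested. In CD8 T cells with 3 or more Ccl5 UMIs, where 15.3% of all genes were higher and 7.51% lower, the list medians were 0.38, 0.28 and 0.31, with 5 of 12, 5 of 13 and 2 of 15 genes higher. In CD4 T cells, where 16.2% of all genes were higher and 9.49% lower, they were 0.36, 0.10 and 0.26, with 5 of 14, 2 of 15 and 5 of 15 genes higher. In B cells, where 5.31% of all genes were higher and 10.6% lower, they were 0.15, 0.09 and 0.18, with 3 of 18, 5 of 16 and 4 of 16 genes higher. The medians over all genes in these classes were 0.09, 0.10 and -0.10, so the lists lay above them in each class except for the interferon gamma list in CD4 T cells, which lay level.

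The immunoproteasome, the form of the proteasome that cuts peptides for class I molecules, was higher in knock-in members in every catalytic subunit. Psmb8, its LMP7 subunit (chromosome 17, 34197721 to 34201454, plus strand), had 213 UMIs, or 183 CPM (159 to 209), in wild-type members and 535 UMIs, or 420.1 CPM (385 to 457), in knock-in members. The log2 ratio was 1.20 (0.97 to 1.43), and it was 0.99 in CD8 T cells with Ccl5, 0.82 in CD4 T cells and 0.89 in B cells. Psmb8 had a UMI in 41.3% of wild-type and 65.3% of knock-in members, and in 13.5% and 33.5% after thinning to 1000 UMIs. Psmb9, the LMP2 subunit, stood at 96.2 and 191 CPM, and Psmb10, the MECL-1 subunit, at 67.0 and 123 CPM. Psme2, part of the PA28 activator that opens the proteasome, stood at 185 and 347 CPM, 0.91 (0.67 to 1.15), while its partner Psme1 stood at 414 and 509 CPM, 0.30. The ratios of the 3 catalytic subunits lay between 0.88 and 1.20.

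Genes induced by interferon gamma beyond the proteasome were uneven. Ifi47, an immunity-related GTPase, stood at 58.4 CPM in wild-type members and 127 CPM in knock-in members, 1.12 (0.71 to 1.55). Socs1, the inhibitor that dampens cytokine signals, stood at 39.5 and 59.7 CPM, 0.59 (0.05 to 1.16). Irf1, a transcription factor of the response, had a ratio of 0.35, below the limit. Gbp9, a guanylate-binding protein, ran the other way at -0.58. Both receptor chains were close between the libraries, with Ifngr1 at 0.30 and Ifngr2 at 0.17.

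Among type I interferon genes the highest ratio was that of Ly6a, the gene of Sca-1, with 8 UMIs in wild-type members and 45 in knock-in members, 2.36 (1.26 to 3.66). Its UMI share was 2.35% and 9.18% of members, below the 23.5% and 31.4% of B cells, so a part of free RNA in these counts was not told apart. Ms4a4c, a membrane protein gene, stood at 15.5 and 38.5 CPM, 1.32 (0.51 to 2.18), also with a UMI share below that of B cells. Irf7, the factor that amplifies the response, stood at 22.3 and 37.7 CPM, 0.75, with an interval that starts at 0.04. Ifi27l2a stood at 339 and 484.5 CPM, 0.51. Isg15, a ubiquitin-like protein and a common readout of type I interferon, was close between the libraries, at 37.8 and 36.1 CPM, -0.07 (-0.69 to 0.56). Parp14 was lower in knock-in members, at 40.4 and 18.9 CPM, -1.10 (-1.87 to -0.36). In single cells thinned to 1000 UMIs, the type I list gave a mean of 1.73 UMIs in wild-type members and 2.31 in knock-in members, and 30.6% and 15.6% of members had none. The interferon gamma list gave means of 1.91 and 2.78 UMIs.

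**Figure D3:**
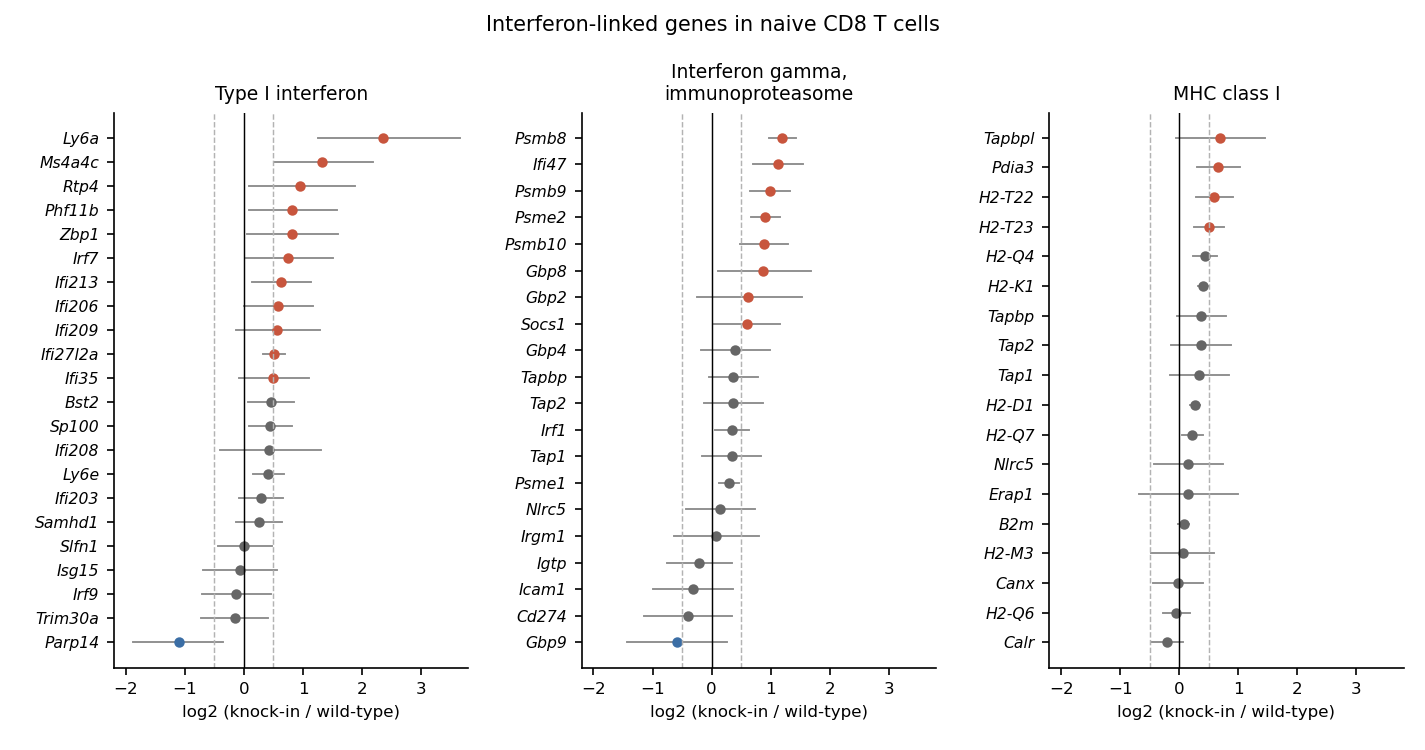
Log2 ratio of knock-in over wild-type CPM in members (x axis) with exact 95% intervals for genes with enough UMIs of the type I interferon, interferon gamma and immunoproteasome, and class I lists (y axis). Red genes lie at 0.5 or above and blue genes at -0.5 or below (dashed lines); Psmb8, Psmb9, Psmb10 and Psme2 lie between 0.88 and 1.20, and Isg15 at -0.07.

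The promoters of several of these genes hold the letters to which interferon-activated factors bind, and the stretches are shown because they are shared by genes that differed and genes that did not. In the RefSeq promoter table (GRCm38.p6), the 250 bases before each start were searched on both strands for GAAANNGAAA, the core of the interferon-stimulated response element. Of 32851 promoters, 978 (2.98%) held it, and of 27025 genes 936 (3.46%). It was in 8 of the 16 type I list genes that matched the table (50%), in 4 of 15 of the interferon gamma list (26.7%), in 3 of 15 of the class I list (20%) and in 1 of 23 of the naive list (4.35%). The shorter TTCNNNGAA, the core to which STAT dimers bind, was in 7.02% of promoters and 8.13% of genes. It was in 4 of 15 interferon gamma genes (26.7%), in 2 of 16 type I genes (12.5%) and in 1 of 15 class I genes (6.67%). The naive list gave 3 of 23 (13.0%) and the memory list 2 of 11 (18.2%), both above the type I list. Capitals mark 1 match per gene in the 60 bases around it, read on the gene's strand, and in Gbp2 the match is on the opposite strand.
Phf11b, chr14:59341346-59341405, minus strand: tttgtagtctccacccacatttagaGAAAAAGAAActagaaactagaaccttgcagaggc
Ifi213, chr1:173599311-173599370, minus strand: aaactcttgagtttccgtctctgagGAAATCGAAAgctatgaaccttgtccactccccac
Gbp2, chr3:142620579-142620638, plus strand: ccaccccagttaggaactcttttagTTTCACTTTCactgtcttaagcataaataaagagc
Socs1, chr16:10785579-10785638, minus strand: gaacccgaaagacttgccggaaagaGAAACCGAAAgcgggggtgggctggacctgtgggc
Isg15, chr4:156200850-156200909, minus strand: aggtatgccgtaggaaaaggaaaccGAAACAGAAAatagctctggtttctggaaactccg

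Of the 12 genes of both interferon lists with a match, 5 lay at a log2 ratio of 0.5 or more and 7 below it. Of those shown, Phf11b had 0.81, Ifi213 0.63, Gbp2 0.62 (-0.24 to 1.52) and Socs1 0.59, while Isg15 had -0.07. Overlapping copies of the same letters lay in Socs1, in Isg15 and in Bst2. Among those not shown, Bst2 had 0.46, Irgm1 0.08 and Igtp -0.20. A match is a description of the sequence and no measure of binding. Ifi213 and its neighbours of the Ifi200 family are close copies, so UMIs could be split among them in counting.

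Of the class I genes, 4 of 18 lay past the limit, and both classical heavy chains were below it. H2-K1, a classical class I heavy chain, stood at 1337 CPM in wild-type members and 1772 CPM in knock-in members, 0.41 (0.31 to 0.50). H2-D1, the other classical heavy chain, stood at 1451 and 1746 CPM, 0.27 (0.17 to 0.36). B2m, their shared light chain, stood at 1466 and 1547 CPM, 0.08 (-0.02 to 0.17), within counting error. Those past the limit were non-classical or of peptide loading, among them H2-T22 at 0.60, Pdia3 at 0.66 and Tapbpl at 0.69. Tap1 and Tap2, the peptide transporter, had 0.34 and 0.36. Class I heavy chains are close copies of each other, and their UMIs can be split in counting.

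Lef1, Tcf7, Ccr7 and Il7r were close between the libraries, while some other genes of the naive list were not. Of 27 naive list genes with enough UMIs, 6 lay past the upper limit and 2 past the lower one (all genes gave 12.1% and 9.49%), and the median was 0.08. Lef1 stood at 522 and 528 CPM, Tcf7 at 266 and 276 CPM, Ccr7 at 724 and 768 CPM, and Il7r at 457 and 514 CPM. Igfbp4 had the largest ratio of the list, at 84.2 and 201 CPM, 1.26 (0.91 to 1.61), with a UMI in 22.5% and 38.0% of members, against 0.38% and 0.36% of B cells. Ramp1, a subunit of the receptor for the neuropeptide CGRP, stood at 49.0 and 102 CPM, 1.06 (0.60 to 1.54). Dapl1 stood at 177 and 254 CPM, 0.52 (0.27 to 0.78). Both genes past the lower limit code for regulators of chromatin or transcription in T cells: Satb1 at 599 and 391 CPM, -0.61 (-0.78 to -0.45), and Foxp1 at 363 and 242 CPM, -0.59 (-0.80 to -0.37). Klf2, the factor that drives S1pr1, was 0.38 and S1pr1 itself -0.36, so this pair ran in opposite directions below the limit.

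Memory and effector genes split. Of 16 with enough UMIs, 6 were higher in knock-in members, 4 were lower and the median was 0.40 (0.45 over the 15 genes other than Ccl5, which the rule limits). Nkg7 stood at 159.8 and 301 CPM, 0.91 (0.66 to 1.17), and Ctsw at 110.0 and 182 CPM, 0.73. Lgals1 stood at 80.8 and 183 CPM, 1.18, and S100a6 at 29.2 and 76.2 CPM, 1.38, but 1 knock-in cell held 24.7% of the S100a6 UMIs. Ly6c2 stood at 172 and 240.3 CPM, 0.48 (0.22 to 0.75). Eomes was lower, at 62.7 and 33.8 CPM, -0.89 (-1.47 to -0.33), as were Ctla2a, at 217 and 131 CPM, and Il2rb, at 118 and 82.5 CPM, -0.51 (-0.89 to -0.14). Xcl1, a chemokine gene, stood at 36.9 and 13.3 CPM, with 53.5% of the wild-type UMIs in 1 cell. Nkg7 and Ctsw thus lay on the other side from Eomes and Il2rb.

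Markers of several other cell types summed higher in knock-in members, though not all. Those of B cells gave 429.6 and 402.8 CPM in wild-type and knock-in members, and those of plasma cells 128 and 121 CPM. The 8 natural killer markers summed to 12.0 CPM in wild-type members and 40.8 CPM in knock-in members, with 4 of the 8 detected in each, Ncr1 and Klrb1c at 0 in both, and 23 of the 52 knock-in UMIs in 1 cell. Of 8 neutrophil markers, 2 and 4 were detected, with sums of 4.30 and 63.6 CPM, and 76 of their 81 knock-in UMIs lay in 1 cell. Sums were also higher in knock-in members for the markers of CD4 T cells (38.7 and 83.2 CPM, 3 of 5 detected in each), regulatory T cells (162 and 239 CPM, 6 of 6) and dendritic cells (164 and 221 CPM, 6 and 7 of 9). Markers of monocytes and macrophages, which include Ly6c2, gave 185 and 308 CPM, with 5 and 9 of 12 detected. Leaving out members with any UMI of the B cell genes Cd79b, Igkc or Cd74 turned S100a6 to -0.069 and Xcl1 to 2.05. In single cells thinned to 1000 UMIs, the memory list without Ccl5 gave a mean of 1.24 UMIs in wild-type members and 1.71 in knock-in members, and 40.4% and 25.6% of members had none. The part of the markers in these values was not tested.

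**Figure D4:**
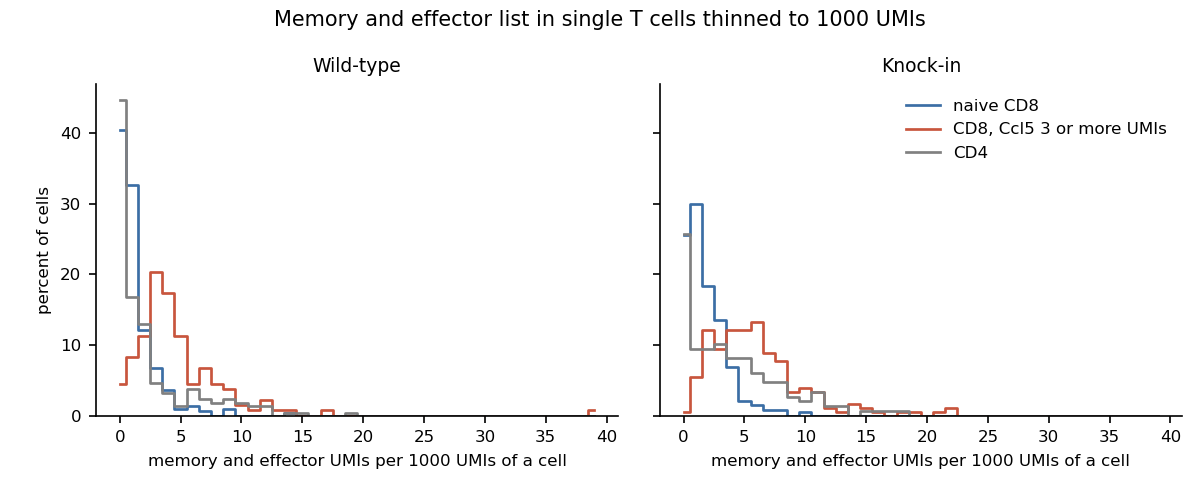
Percent of cells (y axis) by the number of memory list UMIs without Ccl5 per 1000 UMIs (x axis) in members, CD8 T cells with 3 or more Ccl5 UMIs and CD4 T cells, for both libraries. Members pile up at 0 and 1, with 40.4% of wild-type and 25.6% of knock-in members at 0, while the cells with Ccl5 average 4.74 and 6.01 UMIs.

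Genes of the T cell receptor and its signals were mixed. In the list of the CD8 lineage and receptor complex, 3 of 22 genes were higher and none lower, with a median of 0.21, but all 3 are genes that the rule read. Without the rule's genes, 0 of 17 lay past the limit and the median was 0.19. In the signalling list, 3 of 23 lay above the limit and 2 below, and the median was -0.03. Lck, the kinase bound to CD8, stood at 159.8 and 233 CPM, 0.55 (0.28 to 0.82), and Rasgrp1, which turns on Ras, had 0.72. Ubash3a, which dampens the receptor, had -0.93.

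Immediate early genes, which answer antigen and also cell handling, gave shares close to those of all genes, with 4 of 26 higher, 3 lower and a median of 0.04. Nr4a3, a nuclear receptor gene induced by the T cell receptor, stood at 107 CPM in wild-type members and 41.6 CPM in knock-in members, -1.36 (-1.85 to -0.88), and had a UMI in 27.5% and 11.5% of members. Its relative Nr4a1 stood at 68.7 and 66.7 CPM, and Cd69, an early surface marker of activation, at 294 and 296 CPM. Fos stood at 142 and 249.7 CPM, 0.82 (0.54 to 1.10), and Jun at 222 and 354 CPM, 0.68 (0.45 to 0.90). The AP-1 genes and Nr4a3 thus lay on opposite sides, and Cd69 was level.

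Of 27 cytokine receptor and survival genes, 3 were higher in knock-in members and 6 were lower, where all genes gave 12.1% and 9.49%. The share of lower genes was thus above that of all genes, while the median of -0.01 was close to theirs. Bcl2l11, the gene of the death inducer BIM, stood at 161 and 88.7 CPM, -0.86 (-1.21 to -0.51). Bcl2, its inhibitor, stood at 165 and 229 CPM, 0.48 (0.21 to 0.75). Stat5a and Stat5b, which carry the signals of interleukins 2, 7 and 15, had -0.82 and -0.79. Tgfbr2, a receptor that keeps T cells quiet, had -0.59. In the homing list 3 of 17 genes were higher and 1 was lower, with a median of 0.08: Itgb7, an integrin chain for gut homing, stood at 65.3 and 122.5 CPM, 0.91 (0.50 to 1.32). Cxcr4, a chemokine receptor, stood at 94.5 and 55.8 CPM, -0.76, but at 0.16 after thinning.

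**Figure D5:**
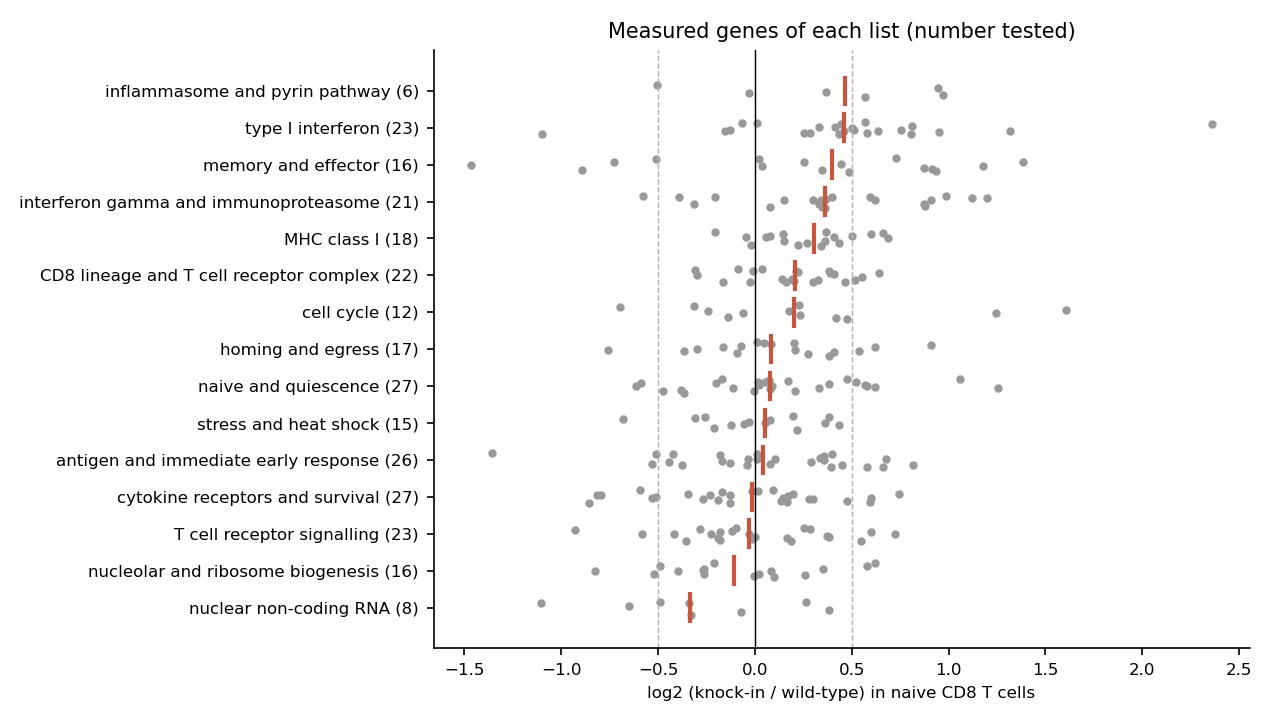
Log2 ratio of knock-in over wild-type CPM in members (x axis) for each gene with enough UMIs of the 15 lists (y axis), with the list median as a red bar. The inflammasome, type I interferon, memory and interferon gamma lists have the highest medians, 0.47, 0.46, 0.40 and 0.36, and the nuclear non-coding RNA list the lowest, -0.34.

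Of the lists without an immune role, those of stress and nucleolar genes had medians nearest to the 0.03 of all genes. Of 15 stress and heat shock genes none was higher and 1 was lower, with a median of 0.05. Of 16 nucleolar genes 2 were higher and 2 lower, and the median was -0.11. Of 12 cell cycle genes 2 were higher and 1 was lower, and the median of 0.20 lay above that of all genes. In the nuclear non-coding RNA list 2 of 8 genes were lower and none higher, with a median of -0.34. Malat1, its most abundant gene, stood at 19915 CPM in wild-type members and 12709 CPM in knock-in members, -0.65 (-0.68 to -0.62). Malat1 differed in the same direction in the other classes, by -0.69 in CD8 T cells with Ccl5, -0.34 in CD4 T cells and -0.73 in B cells. The median mitochondrial share of a member's UMIs was 4.09% and 3.78%.

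Among the most different genes outside the lists, Plaat3, a phospholipase gene, stood at 34.4 and 84.0 CPM, 1.29 (0.75 to 1.85). Prdx2, a peroxidase gene, stood at 52.4 and 112 CPM, 1.09 (0.65 to 1.55), with 1.07 in CD8 T cells with Ccl5 and 0.64 in CD4 T cells. Fam189b stood at 63.6 and 148 CPM, 1.22 (0.83 to 1.63), but had -0.16 and -0.12 in those classes. Kdm6b, a histone demethylase gene, was lower in knock-in members, at 236 and 97.4 CPM, -1.28 (-1.60 to -0.97), with -0.27 in CD8 T cells with Ccl5 and -0.25 in CD4 T cells. Sod1, a superoxide dismutase gene, stood at 131 and 67.5 CPM, -0.96 (-1.36 to -0.57), with -0.90 and -0.97 in those classes. Prdx2 thus lay past the upper limit and Sod1 past the lower one in all 3 T cell classes. Fam189b and Kdm6b lay within the limits in CD8 T cells with Ccl5 and in CD4 T cells. All of these genes were named for their large ratios in members, a choice that by itself favours smaller ratios elsewhere. Whether the classes differ was not tested. Ly6d, a B cell precursor gene, had the largest ratio among the genes named, 4.53, but 97.2% of its 177 knock-in UMIs lay in 1 cell, and without that cell the ratio was -0.38.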

How the data were processed

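The authors deposited whole-number UMI counts, 1 matrix of genes by barcodes per library. Per the file headers these came from Cell Ranger 6.1.2, while Cell Ranger 7.1.0, mm10 and Seurat 5.0.3 stand in the submitters' processing notes. Annotation and barcode choice were not given in the sources used here; mm10 coordinates come from GENCODE M21, which matched 32158 of 32285 features. The members and lists were chosen with earlier results of these data known. For each class, UMIs were added up within a library, scaled to CPM and compared as ratios with exact intervals (Poisson, Clopper-Pearson, conditional binomial), using Python 3.11.15, scipy 1.17.1 and edgeR for TMM factors. Genes needed a mean of 20 CPM and 50 UMIs. Classes other than members: CD8 T cells with 3 or more Ccl5 UMIs, CD4 T cells, and B cells (at least 2 UMIs of Cd79a and Ms4a1, none of Cd3). Named genes were a fixed panel, the 4 largest ratios of each list and comparison, and the 10 highest and lowest ratios among genes with at least 50 CPM and 100 UMIs. The ratio code was tested on simulated counts. Scrublet (scanpy 1.11.5) marked 157 wild-type cells and 1 knock-in cell, so it did not work in the knock-in library; it marked no member. Thinning to 1000 UMIs left out 1 member per library. No per-sample column was left unused (0). The table of RefSeq promoters gave the sequences. Mx1, Mx2, H2-T10 and Norad were not analysed here. Some results are not reported here.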

Additional observations from a re-analysis of the deposited data

Results flagged for a closer look

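In 3 genes the ratio of knock-in over wild-type lay past 0.5 in opposite directions in members and in CD4 T cells; the difference between the classes was not tested, since each class has 1 library per genotype. Ctla2a had -0.73 (-1.02 to -0.44) in members, with 253 and 167 UMIs, and 0.75 (0.38 to 1.13) in CD4 T cells, with 130 and 112 UMIs. Il2rb had -0.51 (-0.89 to -0.14) in members and 0.69 (0.19 to 1.18) in CD4 T cells. Hist1h2ap, a histone gene of dividing cells, had 0.69 (0.29 to 1.09) in members, where it stood at 71.3 and 115 CPM, and -1.44 (-1.85 to -1.05) in CD4 T cells, where it stood at 377 and 139 CPM.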

How the results depend on the processing

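No paired analysis was possible because each genotype has 1 library, and for the same reason no library could be left out. Of 2550 recomputed values, 2384 kept their direction and size within the limits set, 158 moved and 8 reversed. For genes and lists, the limits set were the interval of the main value, which is wide where UMIs are few. Leaving out cells marked by Scrublet, or shared barcodes, removed no member. Ratios of knock-in over wild-type members could not change there, yet they count among the 2384. Chosen after seeing the data were 2 alternatives: the highest 8% of Scrublet scores left out, and members with a UMI of Cd79b, Igkc or Cd74 left out. For the genes higher and lower in knock-in members (547 and 429), a minimum of 100 CPM gave 82 and 47, thinning 236 and 123, no minimum 2233 and 2091, a limit of 0.32 gave 1041 and 872, and a limit of 1 gave 67 and 44; fewer or more genes tested, or another limit, set these counts by construction. Against CD8 T cells with Ccl5 (22 higher and 22 lower in members) the same settings, with limits of 0.5 and 2 in the last pair, gave 4 and 8, 5 and 8, 196 and 181, 138 and 92, and 4 and 7. Against CD4 T cells (31 and 128) they gave 11 and 35, 9 and 36, 142 and 558, 97 and 568, and 10 and 28. TMM factors gave 50 and 80 against CD4 T cells, and totals without ribosomal protein, mitochondrial and immunoglobulin genes gave 50 and 81. Members with 2 or more Cd8 UMIs gave 12 genes higher than in cells with Ccl5. Without members with a UMI of Cd79b, Igkc or Cd74, only 2917 genes had enough UMIs, against 4522 before. Of these 2917, 329 were higher in the knock-in library, and 13 genes were higher than in cells with Ccl5. The same setting reversed Birc5 (-1.27), Hist1h1b (-3.08), Ly6d (-0.27), S100a6 (-0.069) and Xcl1 (2.05). Thinning reversed Birc5 (-0.40) and Cxcr4 (0.16), and leaving out the top cell reversed Ly6d (-0.38); the cause was not tested. The interferon gamma list median was 0.91 at a minimum of 100 CPM, with 5 genes tested; over all settings it ran from 0.31 to 0.91, that of the type I list from 0.29 to 0.52, the class I list from 0.11 to 0.42, the naive list from 0.03 to 0.16 and the memory list from 0.03 to 0.78. The rule on thinned cells gave log2 ratios of 1.15 (of kept cells) and 0.70 (of T cells) for the member share. Depth limits genes near the minimum of 50 UMIs, such as Gbp2 (-0.24 to 1.52).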

Other observations

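Segments of the T cell receptor beta chain were captured in 10.7% of wild-type and 14.0% of knock-in members. In both libraries 14 different Trbv segments were seen among members with a single one, and Trbv12-2 led, in 9 of 31 wild-type cells (29.0%, 14.2 to 48.0) and 17 of 53 knock-in cells (32.1%, 19.9 to 46.3). Trbv12-2 was also the leading segment of CD4 T cells, in 9 of 31 wild-type cells. Alpha chain segments were spread more widely, with 20 Trav segments among 31 wild-type and 21 among 34 knock-in members.

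A few members carried transcripts of division. Birc5, Hist1h1b and Top2a together had 64 UMIs in 14 wild-type members, 28 of them in 1 cell, and 148 UMIs in 17 knock-in members. The knock-in member that held 172 of the 177 Ly6d UMIs had 11909 UMIs and 3161 genes, with 3 UMIs each of the Cd8 and Cd3 genes, and also held 15.0% of the Lgals1 UMIs.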
